A study of Mus musculus with 661 samples.

Results

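The genes described here are *Lepr*, which encodes the leptin receptor, and 9 genes of fat cell formation and lipid handling, *Adipoq*, *Lpl*, *Apoe*, *Fabp4*, *Plin1*, *Pparg*, *Cebpa*, *Cebpb* and *Cebpd*. They were chosen by name, as genes that mark leptin receptor positive marrow stroma or act in the adipogenic program, and all 10 were found among 45771 nuclear genes. They are followed here through 6 sorted stromal populations of mouse bone, through young and old mice, and through clusters of cells.

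Perivascular stromal cells of the marrow carry the leptin receptor, surround the sinusoids, and feed blood stem cells with CXCL12 and stem cell factor. The same cells can become marrow adipocytes or osteoblasts, and they transcribe adipogenic genes before they store fat. In adipogenesis, C/EBPβ and C/EBPδ act early and induce PPARγ and C/EBPα, which then maintain each other and switch on genes for lipid uptake, lipid droplets and adipokines.

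The study sequenced single stromal cells of C57BL/6 wild type mice of both sexes, young (about 2 months) and old (about 24 months), to ask how niche cells change with age. Each cell was sorted into a well and read along full transcripts, without molecular identifiers. All cells were Ter119- and CD45- at sorting, which removes red and white blood cells. From the endosteum, the inner bone surface, came MSC-S (mesenchymal stromal cells, CD31-, Sca-1+, CD51+), mOPr (multipotent osteoprogenitors, positive for CD51 and PDGFRα and negative for CD31, Sca-1 and LepR), OPr (osteoprogenitors, the same gate but PDGFRα-) and AEC (arteriolar endothelial cells, CD31+, Sca-1 high, CD105 low). From the central marrow came MSC-L (gated as mOPr but with LepR present) and SEC (sinusoidal endothelial cells, CD31+, Sca-1 low, CD105 high). The receptor protein was thus a sorting criterion of MSC-L, OPr and mOPr, so the difference in *Lepr* between these gates is not a finding. The MSC-S gate did not use it, but MSC-L were picked for it. That *Lepr* was higher in MSC-L than in MSC-S is thus not a finding either. Endosteal cells were freed by a longer collagenase digestion than marrow cells, which cannot be told apart from their site.

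There were 53 young and 58 old MSC-L, 59 and 59 MSC-S, 44 and 29 OPr, 26 and 26 mOPr, 84 and 82 AEC, and 70 and 71 SEC. Total counts per cell ran from 58034 to 1503374 with a median of 425611. The median was lowest in old SEC (306315) and highest in old OPr (781968), and MSC-L stood at 468565 in young and 357288 in old cells. The authors took the cells from several mice of each age, so a sum can hold cells of several animals. The labels name no mouse, so each age of a population is 1 sample, and no difference between groups could be tested. Levels are depth-scaled counts (CPM, scaled to the nuclear gene total) summed over the cells of a group, with exact Poisson 95% intervals. Because reads without identifiers are not independent molecules, intervals cover counting error only. Differences are log2 ratios of levels with 1 CPM added. A gene is called changed past 2-fold in either direction among genes with 100 or more counts found in 5 or more of the cells compared. Library numbers in the labels fall into 3 ranges, written ranges 1 to 3, and SEC occur only in range 3 while mesenchymal cells occur only in ranges 1 and 2.

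The gates were checked against marker lists. Young MSC-L had all 6 MSC-L markers at 10 CPM or more, summing to 54013 CPM with *Cxcl12* at 48750.1 CPM, and old MSC-L summed to 44787 CPM. MSC-S held all 6 markers of their own gate, at 24221 CPM summed in young and 21251 CPM in old cells. Of 10 mature adipocyte markers, young MSC-L had 3 at 10 CPM or more, and all 10 summed to 2232 CPM with *Adipoq* at 2197 CPM. *Cidec*, *Lep*, *Retn* and *Pck1* had no count there, and *Cidec* and *Lep* had none in old MSC-L. The cells sorted as MSC-L therefore carried transcripts of the adipogenic program without the set that defines a mature fat cell.

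*Lepr* lies at chr4:101717404-101815352 of GRCm38 on the plus strand. Its level was 3160.4 CPM (3137 to 3184) in young MSC-L and 3239 CPM (3214 to 3264) in old MSC-L. In young MSC-L the lowest cell stood at 3.80 CPM, the median cell at 2889.7 CPM and the highest at 8049 CPM, and in old MSC-L these were 20.7, 2958 and 8561 CPM. Nearly every MSC-L thus carried it at a high level, and the spread over cells was alike at both ages.

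Elsewhere in the mesenchyme *Lepr* was at 111 CPM (107 to 114) in young and 234 CPM (229 to 239) in old MSC-S. Young OPr had 362 CPM (355 to 369), old OPr 1333 CPM (1318 to 1348), young mOPr 144 CPM (138 to 150.4) and old mOPr 1047 CPM (1029 to 1065). Endothelial levels were 75.8 CPM (72.9 to 78.7) in young AEC, 31.97 CPM (30.1 to 33.9) in old AEC, 642 CPM (632 to 653) in young SEC and 267 CPM (260.3 to 274) in old SEC. The order of the 12 sums ran from MSC-L through old OPr and old mOPr down to AEC, and no counting intervals of neighbours in it overlapped. The median cell was at 2.74 CPM in young OPr and 1.13 CPM in young MSC-S, where few cells carried most of the transcript, but at 466 CPM in old mOPr, where 17 of 26 cells reached 10 CPM. At least 10 CPM was reached by 28.8% of young MSC-S (median depth 608696 counts), 21.4% of young AEC (417873) and 98.1% of young MSC-L (468565). With each cell thinned to 100000 counts, where 10 CPM is 1 count, these shares were 32.2%, 31.3% and 98.1%.

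Leptin itself, the ligand, was all but absent. *Lep* had no count in any of the 8 mesenchymal groups, where a count of 0 allows up to 0.162 CPM in young MSC-L, and 1 count each in old AEC and old SEC. Downstream of the receptor, the kinase gene *Jak2* was at 111 CPM in young and 138 CPM in old MSC-L, and *Stat3*, the factor it activates, at 212 and 224 CPM. *Socs3*, a feedback inhibitor that STAT3 induces, was at 436 CPM in young and 208 CPM in old MSC-L, against 1225 and 1593 CPM in MSC-S. MSC-L thus had the least *Socs3* of the 6 populations at either age. This holds for the marrow gate and not for every cell with much *Lepr*, since old endosteal cells of clusters M1 and M2, compared further on with marrow cells, had *Socs3* at 3214 CPM. These genes, and list genes given below by level alone, were singled out after their values were seen.

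*Adipoq* encodes adiponectin, a secreted hormone of fat cells, and lies at chr16:23146536-23158028 on the plus strand. Its level was 2197 CPM (2177 to 2216) in young and 1175 CPM (1160.1 to 1191) in old MSC-L. The median cell stood at 1751 CPM in young and 1001 CPM in old MSC-L, with cells from 0 to 7219 and from 0 to 4838 CPM. The old cells were spread further down. At least 10 CPM was reached by 94.3% (84.3 to 98.8%, exact Clopper-Pearson) of young and 87.9% (76.7 to 95.0%) of old MSC-L. These intervals treat cells as independent and leave out differences between mice, so they cannot compare the ages.

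Outside MSC-L, *Adipoq* was at 32.2 CPM in young MSC-S, 0.459 CPM in old MSC-S, 179 CPM in young OPr, 521 CPM in old OPr, 56.4 CPM in young mOPr and 534 CPM in old mOPr. Endothelial sums were 16.95 CPM in young AEC, 0.688 CPM in old AEC, 263 CPM in young SEC and 64.8 CPM in old SEC. Several of these sums came from 1 cell, which held 99.5% of the counts of young MSC-S, 99.4% of young mOPr, 88.5% of young AEC and 61.5% of young OPr. MSC-S can serve as the population that lacks the gene. There 1 of 59 young and 0 of 59 old cells reached 10 CPM at full depth, and after thinning 5.08% and 8.47% did.

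The receptors of adiponectin were not limited to one lineage. *Adipor1* was at 119 CPM in young MSC-L, 214 CPM in young MSC-S, 453 CPM in young AEC and 263 CPM in young SEC. *Cdh13*, which encodes T-cadherin and binds adiponectin at the cell surface, was at 1064 CPM in young AEC, 425 CPM in young MSC-S, 7.71 CPM in young SEC and 7.54 CPM in young MSC-L. The cell type that made *Adipoq* transcript thus had little *Cdh13*, and endosteal cells had more.

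*Lpl* encodes lipoprotein lipase, which is secreted, is carried to the vessel wall by GPIHBP1, and frees fatty acids from lipoproteins there. It lies at chr8:68880491-68907448 on the plus strand. Levels were 1866 CPM (1849 to 1884) in young and 1628 CPM (1609.9 to 1646) in old MSC-L. The median cell stood at 1655 CPM in young and 776 CPM in old MSC-L, while the highest cells reached 5009 and 10499 CPM. Sums elsewhere were 127 and 111 CPM in young and old MSC-S, 452 and 754 CPM in OPr, 40.9 and 669.9 CPM in mOPr, 268 and 89.6 CPM in AEC, and 224 and 249.6 CPM in SEC.

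Of the lipase partners given here, *Gpihbp1* and *Cd36* split by lineage and *Angptl4* did not. *Gpihbp1* was at 530.5 CPM in young and 383 CPM in old AEC, 684 CPM in young and 1047 CPM in old SEC, and at most 2.46 CPM in the 8 mesenchymal groups. *Cd36*, a fatty acid transporter, was at 1393 and 1893 CPM in young and old AEC and 879 and 1167 CPM in SEC, against 0.702 and 3.23 CPM in MSC-L. *Angptl4*, which encodes an inhibitor of the lipase, was at 551 CPM in young and 563 CPM in old MSC-L, next to 518 and 618 CPM in SEC. Transcripts for making the lipase and for holding it at the vessel wall thus lay mostly in different sorted cells, MSC-L for the one and endothelium for the other.

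*Apoe* encodes apolipoprotein E, a lipid carrier of lipoproteins, and lies at chr7:19696109-19699188 on the minus strand. It was at 6313 CPM (6280.1 to 6345) in young and 4219 CPM (4189.8 to 4247) in old MSC-L, and at 5343 CPM (5313 to 5374) in young and 3187 CPM (3163 to 3212) in old SEC. All 53 young and all 58 old MSC-L reached 10 CPM, as did all 70 young and 68 of 71 old SEC. In MSC-L the median cell stood at 6207 CPM in young and 3454 CPM in old mice, with cells from 749 to 17765 and from 51.7 to 12193 CPM. Other sums were 707 and 304 CPM in young and old MSC-S, 829 and 547 CPM in AEC, 1550.0 and 1975 CPM in OPr, and 279.6 and 3825 CPM in mOPr. *Lrp1*, an endocytic receptor for it, was highest in MSC-S, at 3094 CPM in young and 3755 CPM in old cells, and stood at 1166 and 1483 CPM in MSC-L.

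**Figure D1:**
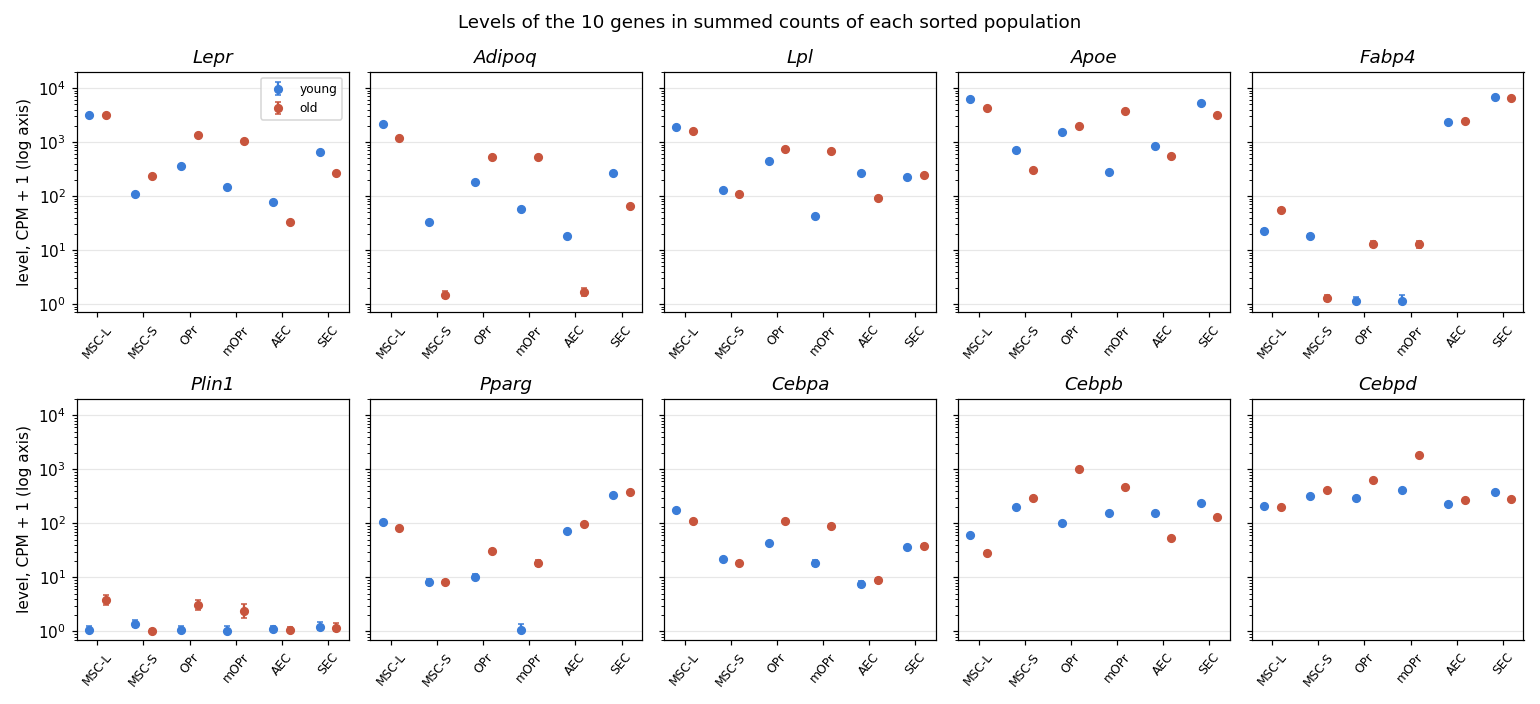
Level of each of the 10 genes in the summed counts of 6 sorted populations, as CPM + 1 on a log axis, for young (blue) and old (red) cells, with exact Poisson 95% intervals that are mostly smaller than the points. *Lepr*, *Adipoq* and *Lpl* are highest in MSC-L, *Pparg* and *Fabp4* in SEC, and *Plin1* stays at or under 2.82 CPM.

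*Pparg* encodes the nuclear receptor PPARγ, the main driver of fat cell formation, and lies at chr6:115360951-115490399 on the plus strand. Its highest sums were endothelial, at 336 CPM (328 to 344) in young and 383 CPM (374 to 391) in old SEC, with 85.7% and 81.7% of SEC at 10 CPM or more. In MSC-L it was at 105 CPM (101 to 109) in young and 80.5 CPM (76.5 to 84.6) in old cells, and the median cell at 18.9 and 4.52 CPM. AEC had 72.6 and 94.6 CPM. MSC-S had 7.18 and 7.20 CPM, OPr 9.34 and 30.2 CPM, and mOPr 1 count (0.0686 CPM) in young and 17.6 CPM in old cells. *Rxra*, whose product pairs with PPARγ on DNA, was spread far more evenly, from 25.2 CPM in old OPr to 152 CPM in young SEC.

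*Cebpa* encodes C/EBPα, the partner of PPARγ in the late program, and lies at chr7:35119293-35121928 on the plus strand. It was at 177 CPM (172 to 182) in young and 111 CPM (106 to 116) in old MSC-L, and 81.1% and 65.5% of cells reached 10 CPM. Sums were 42.6 and 112 CPM in young and old OPr, 17.5 and 89.6 CPM in mOPr, 34.9 and 37.01 CPM in SEC, 20.7 and 17.6 CPM in MSC-S, and 6.48 and 7.86 CPM in AEC. *Cebpa* thus had its highest level in MSC-L, whereas *Pparg* was higher in SEC than in MSC-L.

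The early factors were placed otherwise. *Cebpb* encodes C/EBPβ, also active in inflammation and in myeloid cells, and lies at chr2:167688915-167690418 on the plus strand. It was lowest in MSC-L, at 59.5 CPM (56.4 to 62.8) in young and 27.9 CPM (25.6 to 30.3) in old cells. Sums were 203 and 294 CPM in MSC-S, 98.7 and 1004 CPM in OPr, 157 and 480.2 CPM in mOPr, 155 and 52.6 CPM in AEC, and 236 and 133 CPM in SEC. *Cebpd*, for C/EBPδ, lies at chr16:15887286-15891031 on the plus strand and was at 212 CPM in young and 203 CPM in old MSC-L. It ran from 229 CPM in young AEC to 1811 CPM in old mOPr in the other populations, with 630.1 CPM in old OPr and 408 CPM in old MSC-S. So the pair that starts adipogenesis stood lower in MSC-L than in each of the other 5 populations of the same age. For young *Cebpd* the gap to AEC was small (212 against 229 CPM). This holds for the marrow gate and not for every cell of clusters M1 and M2. Old endosteal cells of these clusters had *Cebpb* at 367 CPM and *Cebpd* at 1293 CPM. The pair that completes adipogenesis stood higher in MSC-L than in the other mesenchymal gates, old OPr *Cebpa* excepted. Reads were counted without strand, and 312 of 1504 exon bases of *Cebpb* and 562 of 3746 of *Cebpd* are shared with *Tmem189* and *Spidr*, whose part in these counts was not tested.

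Among other adipogenic transcription factors, *Ebf3*, a factor of marrow stroma, was at 1139 CPM in young and 1154 CPM in old MSC-L, against 28.7 and 15.8 CPM in MSC-S. *Ebf1* was at 685 and 703 CPM in MSC-L and also at 487 and 335 CPM in MSC-S.

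*Fabp4* encodes a fatty acid carrier of adipocytes and capillary endothelium and lies at chr3:10204088-10208576 on the minus strand. It was endothelial in these data, at 6896 CPM (6861 to 6930.4) in young and 6470.4 CPM (6436 to 6505) in old SEC and at 2350.5 CPM and 2429 CPM in young and old AEC. MSC-L had 21.6 CPM (19.7 to 23.6) in young and 55.5 CPM (52.2 to 58.9) in old cells, where 9.43% and 13.8% of cells reached 10 CPM and 1 cell held 60.98% and 42.2% of the counts. The other mesenchymal sums lay between 0.136 CPM in young OPr and 17.5 CPM in young MSC-S. *Plin1* encodes perilipin, which coats the fat droplet of adipocytes, and lies at chr7:79720218-79732903 on the minus strand. Its 12 sums lay between 0 and 2.82 CPM, and it had 143 counts over all 661 cells, too few for any comparison here. The 55 counts of old MSC-L came from 1 cell.

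The levels of the 10 genes are compared with each other only per kilobase of exon (CPM per kb, all annotated exons of a gene merged). In young MSC-L this level was 2953 for *Apoe*, 1591 for *Adipoq*, 448 for *Lepr*, 178 for *Lpl*, 67.1 for *Cebpa*, 56.7 for *Cebpd*, 39.6 for *Cebpb*, 35.5 for *Pparg*, 4.81 for *Fabp4* and 0.00943 for *Plin1*. Per kilobase the secreted products and the receptor thus stood above all 4 transcription factors. In young SEC *Apoe* (2499 CPM per kb) and *Fabp4* (1536) were followed by *Adipoq* (191), *Cebpb* (157), *Pparg* (114), *Cebpd* (102), *Lepr* (91.1), *Lpl* (21.4) and *Cebpa* (13.2). Cells of cluster E1, which the authors mark as doublets, held 83.02% of these *Adipoq* counts. The place of *Adipoq* above *Cebpb*, *Pparg* and *Cebpd* thus rests on them. In young MSC-S the first places were *Apoe* (331), *Cebpb* (135) and *Cebpd* (86.1).

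The comparison of MSC-L with MSC-S asks how the 2 mesenchymal stem cell gates differ. Since the members were chosen as genes of MSC-L, and LepR protein was a criterion of that gate, the counts and the *Lepr* ratios are a description. In young cells 7 of the 9 members with enough counts differed past 2-fold, where 45.5% of 13645 genes did. Higher in MSC-L were *Adipoq* (log2 ratio 6.05), *Lepr* (4.82), *Lpl* (3.86), *Pparg* (3.70), *Apoe* (3.16) and *Cebpa* (3.03), and *Cebpb* was lower (-1.76). In old cells all 9 differed past 2-fold, against 49% of 13707 genes, with *Adipoq* at 9.65, *Fabp4* at 5.46, *Cebpb* at -3.35 and *Cebpd* at -1.004. Within ranges 1 and 2 the young ratio was 11.38 and 5.26 for *Adipoq*, 5.12 and 4.70 for *Lepr*, 7.32 and 2.64 for *Pparg*, and 5.53 and 2.70 for *Apoe*. In young MSC-S 1 cell held 99.5% of the *Adipoq*, 56.4% of the *Apoe*, 54.03% of the *Pparg* and 43.2% of the *Lpl* counts. Without the highest cell of each group the young ratio was 10.76 for *Adipoq*, 4.26 for *Apoe*, 4.41 for *Pparg*, 4.57 for *Lpl*, 5.13 for *Lepr* and 3.18 for *Cebpa*. The old *Cebpd* ratio was -3.18 in range 1 and -0.37 in range 2. The young *Fabp4* ratio of 0.29 became 2.30 without the highest cell of each group and -0.03 with median-of-ratios size factors, so its direction rests on these choices.

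The pathway lists, 96 further genes, went both ways between these gates. Of 82 with enough counts in young cells, 20 were higher in MSC-L past 2-fold and 25 lower, where 28.8% of all genes were higher and 16.8% lower. In leptin signalling, 5 of 11 were higher (*Irs1* 2.31, *Stat5b* 2.17, *Stat5a* 1.499, *Jak2* 1.35, *Sh2b1* 1.08) and 2 lower (*Socs3* -1.49, *Irs2* -1.74). Among adipogenic transcription factors, 5 of 16 were higher, *Ebf3* (5.26) and *Zfp467* (3.96) first, and 3 lower, *Klf4* (-4.84), *Klf5* (-4.00) and *Ebf2* (-1.27). None of 8 inhibitors of adipogenesis was higher, and 4 were lower, *Wnt10b* (-3.24), *Klf2* (-2.50), *Foxo1* (-2.27) and *Sirt1* (-1.94). Lipid droplet genes were split, with *G0s2* (5.43), *Fitm2* (2.68) and *Lipe* (1.69) higher and *Plin4* (-4.62), *Mgll* (-2.48), *Pnpla2* (-1.65) and *Plin3* (-1.40) lower. *G0s2* encodes an inhibitor of the lipase that *Pnpla2* encodes, so the inhibitor was up and the lipase down. In old cells 20 of 77 list genes were higher and 22 lower, against 32.8% and 16.2% of all genes, and of 8 inhibitors of adipogenesis 0 were higher and 4 lower.

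With age, 2 of 9 members changed past 2-fold in MSC-L, where 25.4% of 13143 genes did, so the count is near the background. *Fabp4* was higher (1.32) and *Cebpb* lower (-1.07). The *Cebpb* ratio was -1.18 in range 1, -1.05 in range 2 and -0.99 without the highest cell of each group, and it turned to 1.13 where cells of M1 and M2 from every gate took the place of sorted MSC-L. The other log2 ratios were -0.90 for *Adipoq*, -0.67 for *Cebpa*, -0.58 for *Apoe*, -0.38 for *Pparg*, -0.20 for *Lpl*, -0.07 for *Cebpd* and 0.04 for *Lepr*. *Adipoq* passed 2-fold as a mean of CPM over cells (-1.04) and in range 1 (-1.01; -0.82 in range 2). *Apoe* stood at -0.03 in range 1 and -0.94 in range 2, and *Cebpd* at -1.91 and 0.44, so its direction was not the same in the ranges. Over the members the median log2 ratio was -0.38, against 0.01 over all genes compared.

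Of the 96 list genes, 74 could be compared in MSC-L, and 4 were higher and 15 lower in old cells past 2-fold, against 13.9% and 11.5% of all genes. Lower lipid droplet genes were *Mgll* (-2.56), *Fitm2* (-1.59), *Lipe* (-1.16) and *Bscl2* (-1.14), of 9 compared. The adipogenic factors *Ebf2* (-2.66), *Ppargc1b* (-1.35), *Prdm16* (-1.32) and *Nr1h3* (-1.03) were lower, of 15, and none of 7 inhibitors passed 2-fold. Among those higher were *Sorl1* (1.56) and *Sort1* (1.03), for sorting receptors, and *Acsl1* (1.23), which encodes an enzyme that activates fatty acids. In leptin signalling *Socs3* alone passed, at -1.06.

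The authors clustered these cells by an iterative method with guide genes, and *Lepr*, *Adipoq*, *Lpl*, *Cebpa* and *Apoe* were among its guides for mesenchymal cells, so their levels in clusters are a description. The MSC-L clusters M1 and M2 held 51 of 53 young and 56 of 58 old MSC-L. Of the young, 39 lay in M1 and 12 in M2, and of the old 33 and 23. The MSC-L were then split by cluster, after the values were seen. In M1 *Adipoq* was at 2258 CPM in young and 1505 CPM in old MSC-L and *Lpl* at 2166 and 2295 CPM. In M2 *Adipoq* was at 2081 CPM in young and 515 CPM in old MSC-L, *Lpl* at 889 and 232 CPM, *Apoe* at 6751 and 2911 CPM, and *Lepr* at 3552 and 2508 CPM. Within M1, 1 of 9 members passed 2-fold with age (*Fabp4* 1.53), where 24.996% of 12110 genes did. Within M2 6 of 8 members did, where 53.1% of 8724 genes did (29.7% higher and 23.4% lower), so that the larger count stands beside a larger background. All 6 were lower in old cells: *Cebpb* (-2.14), *Adipoq* (-2.01), *Cebpd* (-2.0001), *Lpl* (-1.93), *Apoe* (-1.21) and *Pparg* (-1.11). *Lepr* was at -0.50. The young M2 group held 12 cells, and whether age acts differently in the clusters was not tested.

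**Figure D2:**
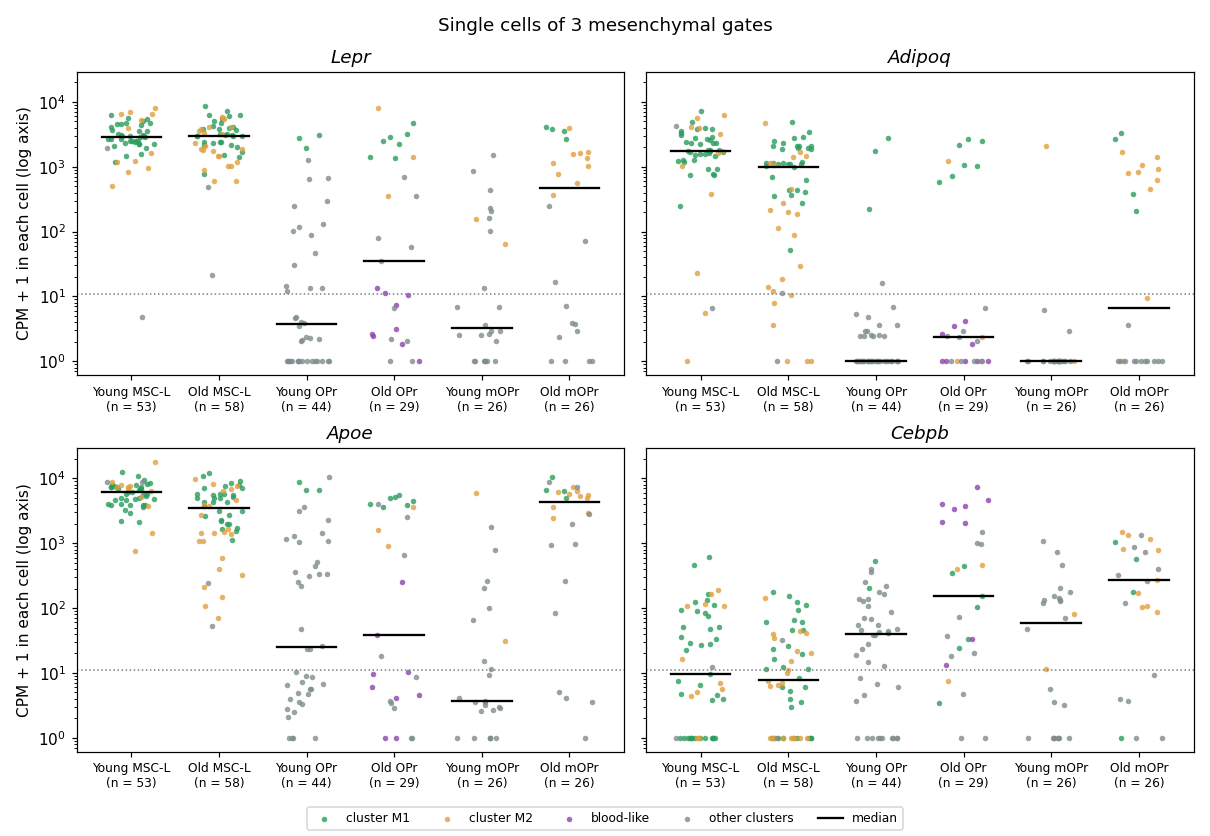
Each point is 1 cell, as CPM + 1 on a log axis, for *Lepr*, *Adipoq*, *Apoe* and *Cebpb* in young and old MSC-L, OPr and mOPr, colored by cluster M1, M2, other clusters or blood-like, with the median as a bar and 10 CPM as a dotted line. The high old OPr and mOPr cells for *Lepr* and *Adipoq* are M1 and M2 cells, and the highest *Cebpb* cells are blood-like old OPr.

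M2 against M1, over cells of every gate, had 3 of 9 members past 2-fold, where 29.5% of 13862 genes were. *Fabp4* (-2.41) and *Lpl* (-1.90) were lower in M2 and *Cebpb* (1.19) higher. Within ranges 1 and 2 these ratios were -0.95 and -4.41 for *Fabp4*, -2.08 and -1.65 for *Lpl*, and 1.70 and 0.86 for *Cebpb*. Without the highest cell of each group more members passed 2-fold, as given under the processing. *Cebpb* stood at -0.30 in young cells and -0.20 in cells sorted as MSC-L, splits made after the values were seen, so its direction rests on old cells and on cells from the endosteal gates. *Adipoq* stood at -0.995, just under the line, with -0.16 in young cells and -1.48 in old cells. *Lepr* went from -0.02 in young cells to -0.58 in old cells. The difference between the clusters in *Adipoq* and *Lepr* was thus larger among old cells, which was not tested. The authors describe M2 as reduced in MSC-L identity genes and high in adipogenic marker genes. Here *Pparg* (-0.88) and *Cebpa* (-0.85) stood lower in M2, both under 2-fold. They need not be the marker genes the authors used, so that description was not tested here. Markers of other cell types moved too. Osteolineage *Bglap* (3.66), *Alpl* (3.45), *Bglap2* (3.19), *Col1a1* (1.35) and *Sp7* (1.30) were higher in M2, with *Ibsp* at -0.73. Pericyte *Mcam* (-2.59), *Myh11* (-2.21), *Acta2* (-1.83), *Rgs5* (-1.72) and *Notch3* (-1.40) were lower. Of the list genes, 11 of 75 were higher and 11 lower. *Vldlr* (3.97) and *Lipe* (3.89) were higher in M2, *Fabp5* (-2.46) and *Ppargc1b* (-2.13) lower. M2 held 2236 counts of *Vldlr* and 610 of *Lipe*. All sorted MSC-L held 308 and 187 counts of these genes in young and 202 and 61 in old cells. Most counts of both genes in M2 thus came from the endosteal gates.

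In MSC-S, 4 of 9 members changed past 2-fold with age, against 19.7% of 13381 genes. These were *Adipoq* (-4.51), *Fabp4* (-3.85), *Apoe* (-1.21) and *Lepr* (1.07). One young cell, replicate 35 of MSC-S in cluster M5, held 99.5% of the *Adipoq*, 94.7% of the *Fabp4* and 56.4% of the *Apoe* counts of its group. Without the highest cell of each group *Adipoq* and *Fabp4* no longer had enough counts, and *Apoe* stood at -1.07 and *Lepr* at 0.95. *Apoe* was at 2.17 in range 1 and -2.21 in range 2, opposite directions, and *Lepr* at 0.64 and 1.10. The authors describe cluster M9 as made only of old cells, and *Lepr* stood higher there than over all old MSC-S. The part of M9 in the *Lepr* rise was not tested. *Cebpb* (0.53) and *Cebpd* (0.34) stayed under 2-fold.

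That cell is described for itself, having been singled out after its values were seen. It had 835773 counts, 1.88% of them mitochondrial, and none of the 15 hematopoietic markers at 10 CPM. *Cfd*, which encodes adipsin, reached 33248 CPM, the highest of all 661 cells, and *Plin4*, for a perilipin of small droplets, 989 CPM, again the highest. *Apoe* was at 16818 CPM, *Lpl* at 2316 CPM, *Adipoq* at 1349 CPM, *Fabp4* at 696 CPM, *Pparg* at 163 CPM and *Cebpa* at 149 CPM. *Lepr*, *Plin1* and *Cidec* had no count in it. Of the counts of young MSC-S it also held 54.03% for *Pparg*, 43.2% for *Lpl* and 17.04% for *Cebpa*. It thus made up nearly all of the *Adipoq* and *Fabp4* of its group, and a smaller part of the others.

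In OPr, 7 of 9 members changed past 2-fold with age, all higher in old cells, where 45.2% of 13418 genes passed. In mOPr all 9 did, against 44.5% of 11237 genes. Ratios in OPr were 3.51 for *Fabp4*, 3.33 for *Cebpb*, 1.88 for *Lepr*, 1.59 for *Pparg*, 1.53 for *Adipoq*, 1.37 for *Cebpa* and 1.10 for *Cebpd*, with *Lpl* at 0.74 and *Apoe* at 0.35. Ratios in mOPr were 4.12 for *Pparg*, 4.00 for *Lpl*, 3.77 for *Apoe*, 3.49 for *Fabp4*, 3.22 for *Adipoq*, 2.85 for *Lepr*, 2.29 for *Cebpa*, 2.11 for *Cebpd* and 1.61 for *Cebpb*. In old OPr 7 of these 9 genes, and in old mOPr all of them, thus stood past 2-fold above the young level. Young mOPr had 1 count of *Pparg* and 2 of *Fabp4*, and young OPr 4 of *Fabp4*. The size of these ratios thus depends on the added 1 CPM. Within ranges 1 and 2 the OPr ratio of *Lepr* was 1.74 and 2.85 and that of *Cebpd* -0.42 and 2.66, opposite directions. For *Apoe* in OPr it was -0.28 and 1.98, for *Adipoq* 1.08 and 7.28, and for *Pparg* 0.20 and 5.04. *Lpl* in OPr passed 2-fold without blood-like cells (1.16), which are described with *Cebpb*. In mOPr *Lepr* was at 3.005 and 2.75, *Lpl* at 3.07 and 6.28, and *Adipoq* at 9.46 and 1.98.

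These increases were then set beside the clusters. Cells of M1 and M2 were 3 of 44 young and 10 of 29 old OPr, and 2 of 26 young and 14 of 26 old mOPr. They held 97.8% of the *Lepr* and 99.9% of the *Adipoq* counts of old OPr, and 98.5% and 100.0% of those of old mOPr. In old OPr outside M1 and M2 *Lepr* was at 53.2 CPM and *Adipoq* at 0.934 CPM, and in old mOPr outside them at 32.99 and 0.338 CPM. Without cells of M1 and M2, a setting added after the values were seen, the age ratio of *Lepr* was -0.92 in OPr and -2.11 in mOPr, so that the rise of the receptor transcript in both gates lay in those cells. Since the clusters were made with these genes as guides, this places the counts and does not explain them. Other genes in mOPr behaved otherwise. Outside M1 and M2 *Apoe* and *Cebpd* were at 1993 and 1580.4 CPM in old mOPr, against 125 and 427 CPM in young mOPr, ratios of 3.98 and 1.89. *Lpl* (3.05), *Cebpa* (1.58) and *Cebpb* (1.08) also stayed past 2-fold there.

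The *Cebpb* level of old OPr had another source among the cells. Blood-like cells, with at least 7 of 15 hematopoietic markers at 10 CPM or more, were 9 of 29 old OPr and 0 of 44 young OPr, and they held 77.1% of the old *Cebpb* counts. Their *Cebpb* level was 3043 CPM. All 15 markers reached 10 CPM in them, summing to 45888 CPM with *S100a9* at 15877 CPM, although the gate was CD45-. Without them the age ratio of *Cebpb* in OPr was 1.63. The 10 old OPr outside M1 and M2 that were not blood-like had *Cebpb* at 462 CPM and young OPr outside M1 and M2 had 80.9 CPM.

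The lists moved in both directions in these gates, and so did markers of other cell types. Chondrocyte markers were lower past 2-fold in old cells, 6 of 6 in OPr and 5 of 5 in mOPr (*Col2a1* -5.53 and -7.68), and pericyte markers higher, 4 of 5 and 4 of 4 (*Acta2* 6.89 and 3.58). Whether the list changes lie within cells or in the mix of cells was not tested. In OPr 25 of 79 list genes were higher and 15 lower past 2-fold, against 25.6% and 19.6% of all genes, and in mOPr 20 of 74 higher and 13 lower, against 24.7% and 19.8%. Among lipid droplet genes *Lipe* (3.22 in OPr, 5.21 in mOPr) and *G0s2* (2.97 and 1.78) were higher in both. *Fitm2* was lower (-2.32 and -2.19). *Pnpla2* (1.16 and -2.27) and *Abhd5* (-1.41 and 1.02) passed 2-fold in opposite directions. In 1 gate alone *Plin2* (1.98, OPr) and *Plin4* (1.13, mOPr) were higher and *Mgll* (-3.08, mOPr) lower. In mOPr 7 of 14 adipogenic transcription factors were higher, *Nr1h3* (3.58) and *Ebf3* (2.84) first. *Gpam*, for the enzyme that starts glycerolipid synthesis, was lower in both (-3.36 and -3.66). Part of the OPr list belongs to the blood-like cells, which had *Dgat1* at 2249 CPM, *G0s2* at 1853 CPM, *Sorl1* at 1657 CPM and *Slc27a4* at 985 CPM, against 636, 492, 474 and 252 CPM over all old OPr.

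Old endosteal and old marrow cells of M1 and M2 were compared with each other to ask whether cells of 1 cluster pair differ by the gate they came from. The endosteal group was 24 cells (10 OPr and 14 mOPr) and the marrow group 56 MSC-L. LepR protein was a criterion of both gates, absent from the one and present on the other, and *Lepr* transcript was at 2518 CPM in the endosteal and 3309.9 CPM in the marrow group (log2 ratio -0.39). *Adipoq* was at 1099.5 and 1205 CPM (-0.13) and *Apoe* at 4479.8 and 4319 CPM (0.05). Past 2-fold were 3 of 9 members, against 35.6% of 12432 genes. *Cebpb* was at 367 CPM in endosteal and 28.4 CPM in marrow cells (3.65), *Cebpd* at 1293 and 208 CPM (2.63), and *Fabp4* at 21.8 and 56.9 CPM (-1.34). The *Cebpb* ratio was 4.02 in range 1 and 3.74 in range 2, and that of *Cebpd* 2.75 and 2.97. Among list genes 12 of 70 were higher and 12 lower, the first of them *Socs3* (3.91), *Vldlr* (3.42) and *Klf4* (3.07), with *Klf2* at 2.77. *Socs3*, *Klf4*, *Klf2*, *Cebpb* and *Cebpd* are known as genes that respond early to stress and handling of cells, and the part of the longer digestion of endosteal cells was not tested.

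SEC were compared with AEC within range 3, which holds every SEC, 24 young AEC and 23 old AEC. In young cells 8 of 9 members differed past 2-fold, against 42.2% of 11908 genes. Higher in SEC were *Adipoq* (7.50), *Lepr* (4.19), *Cebpa* (3.58), *Apoe* (1.87), *Cebpb* (1.39), *Cebpd* (1.31) and *Pparg* (1.26), and *Lpl* was lower (-1.88). In old cells 5 did, against 42.9% of 12082 genes, *Adipoq* (6.04), *Lepr* (3.83), *Apoe* (1.68), *Cebpa* (1.59) and *Fabp4* (1.30), all higher in SEC. The old AEC of range 3 had no count of *Adipoq*, so the old log2 ratio of that gene depends on the added 1 CPM.

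The *Lepr* and *Adipoq* of SEC sat largely in cluster E1, which the authors mark as mesenchymal and endothelial doublets. E1 held 9 of 70 young and 4 of 71 old SEC, and 1 of 84 young AEC. These cells carried 79.6% of the *Lepr* and 83.02% of the *Adipoq* counts of young SEC, and 57.6% and 74.2% of those of old SEC, but 6.45% and 3.99% of the *Fabp4* counts. For *Cebpa* the share was 70.1% in young and 38.6% in old SEC, and for *Lpl* 57.99% and 38.8%. Across its 14 cells E1 had *Lepr* at 3060.4 CPM, *Adipoq* at 1269 CPM and *Fabp4* at 3055 CPM, with all 6 MSC-L markers (33475 CPM summed, *Cxcl12* 29545 CPM) and all 6 endothelial markers (1994 CPM summed, *Kdr* 665 CPM) at 10 CPM or more. Without E1, *Lepr* in SEC was at 155 CPM in young and 121 CPM in old cells, and *Adipoq* at 52.6 and 17.9 CPM. The SEC over AEC ratio was then 2.14 in young and 2.69 in old cells for *Lepr*, and 5.20 and 4.24 for *Adipoq*. For *Cebpa* it was 2.14 and 1.003, and for *Lpl* -2.89 and -1.40. *Lepr*, *Adipoq*, *Lpl* and *Apoe* were guides of the endothelial clusters too.

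Between endothelial clusters, levels are again a description. The sinusoidal cluster E7 had *Fabp4* at 8098 CPM, *Apoe* at 4773 CPM and *Pparg* at 407 CPM. Cluster E5, which the authors placed in neither their AEC-like nor their SEC-like group, had *Lpl* at 924 CPM and *Fabp4* at 4321 CPM. *Lpl* in E3 and E4, the AEC clusters, was at 18.3 and 40.0 CPM. So among endothelial cells *Lpl* stood highest outside the doublets in E5, and *Pparg* in E7.

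**Figure D3:**
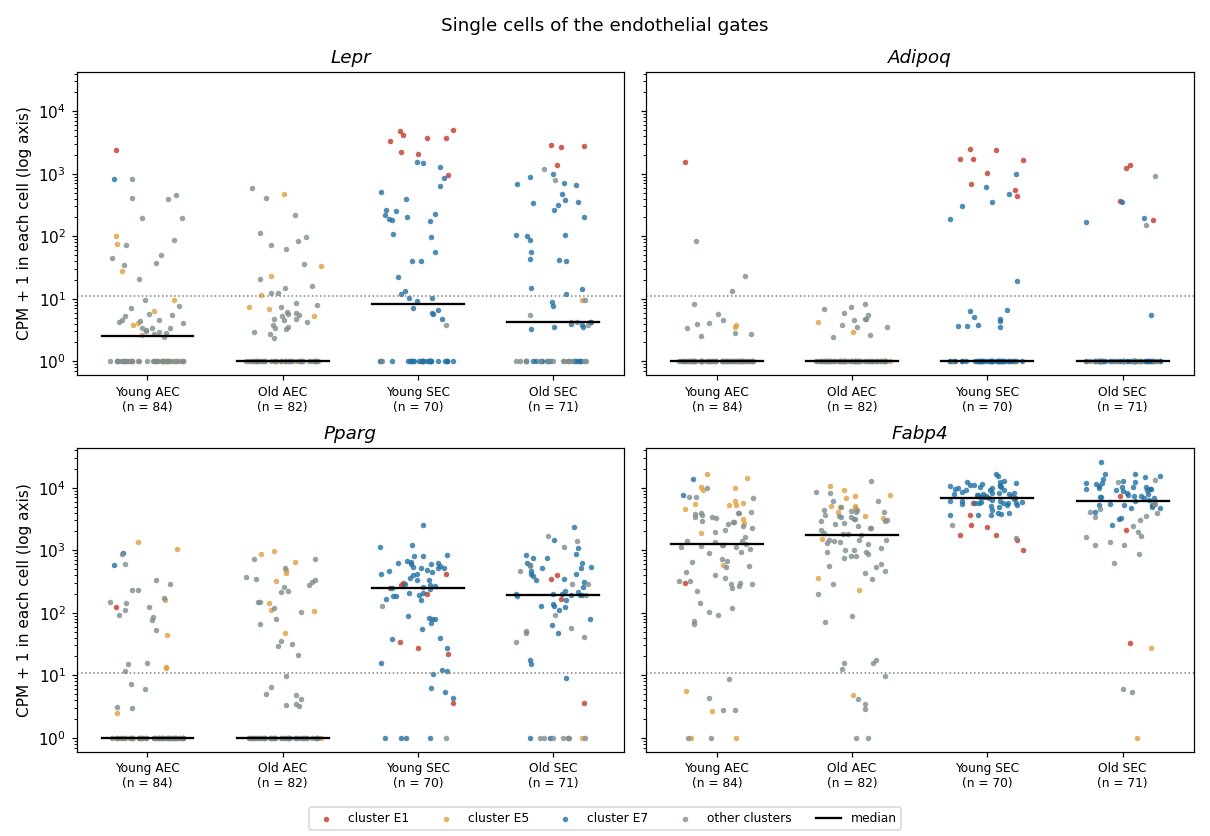
Each point is 1 cell, as CPM + 1 on a log axis, for *Lepr*, *Adipoq*, *Pparg* and *Fabp4* in young and old AEC and SEC, colored by cluster E1, E5, E7 or other, with the median as a bar and 10 CPM as a dotted line. Cells of E1 hold most of the *Adipoq* and *Lepr* counts of young SEC (83.02% and 79.6%), while *Fabp4* is high throughout SEC.

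With age, 4 of 9 members changed past 2-fold in AEC, all lower in old cells, where 21.1% of 14042 genes did. They were *Adipoq* (-3.41), *Lpl* (-1.57), *Cebpb* (-1.54) and *Lepr* (-1.22). Without the 1 young AEC of E1, *Lepr* stood at -0.69 and *Adipoq* had too few counts. *Cebpb* was at -0.66, -2.58 and 0.01 in ranges 1, 2 and 3, and *Lpl* at -4.53, -3.31 and -0.93, so the latter kept its direction. Among endothelial cells *Lpl* stood highest outside the doublets in E5. Whether its fall lies within cells or in the share of E5 among AEC was not tested. For *Cebpa* the small pooled ratio of 0.24 hid 2.38 in range 1 and -2.005 in range 2.

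In SEC 2 of 9 members changed, against 20.7% of 12982 genes, a share near the background. *Adipoq* (-2.01) and *Lepr* (-1.26) were lower in old cells, and without E1 they stood at -1.51 and -0.35. *Cebpb* at -0.83 passed as a mean of CPM over cells (-1.13). *Apoe* was at -0.75, *Pparg* at 0.19 and *Fabp4* at -0.09.

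The endothelial lists showed other differences. In AEC 6 of 83 list genes were higher with age and 8 lower past 2-fold (9.33% and 11.7% of all genes). Of 11 triglyceride synthesis genes *Scd1* (1.82), *Fasn* (1.55) and *Agpat2* (1.05) were higher and none lower, and of 10 uptake genes *Lipg* (-2.94), *Angptl4* (-1.80) and *Slc27a1* (-1.53) were lower. In SEC 17 of 82 were higher and 4 lower (13.1% and 7.56% of all genes), among them *Slc27a3* (2.64), *Cdh13* (2.30), *Sort1* (1.97), *Gata2* (1.85) and *Mgll* (1.85) higher, and *Ppargc1b* (-2.33) and *Apod* (-1.96) lower. Markers of other cell types moved in these gates too. In old SEC 4 of 5 arteriolar, 4 of 6 pericyte and 8 of 11 hematopoietic markers were higher past 2-fold, and *Cdh13* and *Mgll* are genes with more transcript in young AEC (1064 and 517 CPM) than in young SEC (7.71 and 67.3 CPM). Blood-like cells were 1 of 71 old and 0 of 70 young SEC, and the part of that cell in the hematopoietic markers was not tested. In old AEC 2 of 4 sinusoidal markers were lower (*Stab2* -4.40, *Stab1* -1.56), and *Lipg* and *Angptl4* have more transcript in young SEC (631 and 518 CPM) than in young AEC (25.5 and 361 CPM). The pericyte markers *Kcnj8* (-3.31) and *Rgs5* (-1.57) were lower there too. Osteolineage and MSC-S markers went both ways. *Col1a1* (3.25), *Sp7* (3.05), *Dpt* (2.73), *Pi16* (1.90) and *Dcn* (1.05) were higher, *Ibsp* (-5.56) and *Thy1* (-2.10) lower. A change within cells and a change in the mix of cells cannot be told apart from these sums. Between SEC and AEC in range 3, 18 of 81 list genes were higher and 25 lower in young cells, against 24.9% and 17.3% of all genes. In old cells 24 of 80 were higher and 15 lower, against 27.6% and 15.3%. *Cfd* (7.51 and 7.55) and *Lipg*, for endothelial lipase (3.75 and 6.01), were higher in SEC, *Irs2* (-5.34 and -5.91) and *Cdh13* (-6.12 and -4.36) lower.

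How the genes met in single cells was counted at 10 CPM or more. *Lepr*, *Adipoq*, *Lpl* and *Apoe* were found together in 50 of 53 young and 49 of 58 old MSC-L, in no MSC-S of either age, and in 8 of 29 old OPr and 10 of 26 old mOPr. They also met in 3 of 44 young OPr, 1 of 26 young mOPr, 1 of 84 young AEC, 13 of 70 young SEC and 5 of 71 old SEC. All 42 young and 44 old cells of M1 had the 4 together, against 11 of 14 young and 22 of 36 old cells of M2. The median MSC-L carried 7 of the 10 genes in young and 6 in old mice, and the median MSC-S 3. *Pparg* and *Cebpa* met in 25 young and 20 old MSC-L. In the MSC-L sums these factors stood at 177 CPM or less and the 4 other genes at 1175 CPM or more. A cut of 10 CPM is harder to reach at a low level, so these numbers do not compare how widely the genes are shared. *Lepr* without *Adipoq* occurred in 17 young and 21 old MSC-S. Cluster M9, 10 old MSC-S-like cells, shows this most, with *Lepr* at 671 CPM, *Adipoq* at 0.119 CPM and *Apoe* at 1.79 CPM. Across the 111 MSC-L, Pearson's r of log2(CPM + 1) was 0.522 for *Lpl* with *Apoe*, 0.517 for *Adipoq* with *Lpl* and 0.509 for *Lepr* with *Lpl*. These values were not alike at both ages: *Lpl* with *Apoe* had 0.000272 in the 53 young and 0.605 in the 58 old cells, *Adipoq* with *Lpl* 0.316 and 0.544, and *Lepr* with *Lpl* 0.645 and 0.458. By ranks (Spearman) the young values of these 3 pairs were -0.0456, 0.0141 and 0.171. *Adipoq* with *Apoe*, at 0.510 over all MSC-L, had 0.260 in young and 0.505 in old cells, and rank values of 0.404 and 0.453. These cells share depth and library, and the values are a description.

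Over the 12 sums of population and age, the members fell into groups by Pearson's r of log2(CPM + 1), where sums of 1 population share its cells' identity. *Lepr* went with *Cebpa* (0.954), *Adipoq* (0.869) and *Lpl* (0.850), *Pparg* with *Fabp4* (0.851), and *Cebpb* with *Cebpd* (0.750). *Lepr* had r of 0.00721 with *Cebpb* and -0.231 with *Fabp4*. The 3 genes most like each member were named among 13341 genes. For *Lepr* these were *Rasa3* (0.970), *Pappa* (0.966) and *Kcnip3* (0.965), for *Adipoq* *Ptk7* (0.959), *Podnl1* (0.955) and *Kng1* (0.938), and for *Lpl* *Slco1a5* (0.957), *Wdr86* (0.941) and *4930594M22Rik* (0.938). Most like *Cebpa* were *Tnfrsf19* (0.975), *Kcnip3* (0.966) and *Soat1* (0.962), and most like *Pparg* were *Ifi35* (0.949), *Smarca4* (0.940) and *N4bp1* (0.939). For *Apoe* they were *Dclk2* (0.947), *Syde1* (0.943) and *Vcam1* (0.941), and for *Fabp4* *Hdac7* (0.979), *Dgkz* (0.976) and *Gpr146* (0.976). *Cebpb* was most like *Rab7* (0.868), *Cstb* (0.851) and *Cdk2ap2* (0.827), and *Cebpd* most like *Smyd4* (0.873), *Fam50a* (0.871) and *Dpep2* (0.870).

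Promoters are printed for *Lepr*, *Adipoq* and *Cebpa*, which moved together over the 12 sums, and for *Pparg*, whose pattern differed from theirs. The windows, of 300 bases from 250 before to 50 after a start, come from a table of RefSeq promoters on build GRCm38.p6. The table used gave 12 windows for 7 of the 10 genes, all but *Lpl*, *Cebpd* and *Fabp4*. All 5 lie on the plus strand: *Lepr* at chr4:101717157-101717456 (upstream) and chr4:101717656-101717955 (downstream), *Adipoq* at chr16:23146286-23146585, *Cebpa* at chr7:35119043-35119342, and *Pparg* at chr6:115421816-115422115, a start inside the gene. Capitals mark matches, on either strand, to TTGCNNAA (the letters C/EBP factors bind), to CCAAT, also to TATAAA and to GGGCGG, none of which overlap each other in these windows.
Lepr upstream window: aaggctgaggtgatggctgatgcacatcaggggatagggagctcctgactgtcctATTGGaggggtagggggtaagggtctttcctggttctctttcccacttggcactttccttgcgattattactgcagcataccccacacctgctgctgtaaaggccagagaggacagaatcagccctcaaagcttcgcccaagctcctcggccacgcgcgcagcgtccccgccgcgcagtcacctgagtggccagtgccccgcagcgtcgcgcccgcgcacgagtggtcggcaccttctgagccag
Lepr downstream window: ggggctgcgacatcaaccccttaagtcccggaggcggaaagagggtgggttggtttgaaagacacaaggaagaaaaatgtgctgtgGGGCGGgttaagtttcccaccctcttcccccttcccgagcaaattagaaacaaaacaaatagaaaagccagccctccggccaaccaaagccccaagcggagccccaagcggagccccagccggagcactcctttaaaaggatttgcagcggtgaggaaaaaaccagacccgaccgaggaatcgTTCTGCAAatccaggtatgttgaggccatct
Adipoq window: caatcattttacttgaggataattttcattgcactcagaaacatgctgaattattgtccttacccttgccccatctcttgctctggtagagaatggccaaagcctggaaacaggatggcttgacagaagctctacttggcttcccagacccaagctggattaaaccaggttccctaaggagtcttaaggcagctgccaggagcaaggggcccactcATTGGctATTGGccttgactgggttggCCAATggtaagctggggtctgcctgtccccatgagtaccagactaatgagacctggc
Cebpa window: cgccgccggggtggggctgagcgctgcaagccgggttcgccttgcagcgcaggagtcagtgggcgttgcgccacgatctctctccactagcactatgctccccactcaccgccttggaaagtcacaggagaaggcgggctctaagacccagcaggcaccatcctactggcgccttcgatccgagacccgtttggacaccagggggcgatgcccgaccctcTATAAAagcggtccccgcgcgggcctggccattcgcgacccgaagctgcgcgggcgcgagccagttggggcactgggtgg
Pparg inner window: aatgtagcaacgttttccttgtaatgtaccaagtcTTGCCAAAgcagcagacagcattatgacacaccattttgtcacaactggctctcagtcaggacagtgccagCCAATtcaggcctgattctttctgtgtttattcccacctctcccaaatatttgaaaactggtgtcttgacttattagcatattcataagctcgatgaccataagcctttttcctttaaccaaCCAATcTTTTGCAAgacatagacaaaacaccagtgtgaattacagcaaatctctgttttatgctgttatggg

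The downstream *Lepr* window holds 1 TTGCNNAA match and 1 GGGCGG, its upstream window 1 CCAAT match. *Adipoq* has 3 CCAAT matches within its last part, near the start of the gene and no TTGCNNAA, *Cebpa* 1 TATAAA, and the inner *Pparg* window 2 TTGCNNAA and 2 CCAAT matches. The other 2 *Pparg* windows, at chr6:115360894-115361193 and chr6:115362099-115362398, have no TTGCNNAA match, and the inner window was picked for having them. Over 32851 promoters of the same length, 10.8% held TTGCNNAA, 37.4% CCAAT, 13.6% TATAAA and 35.7% GGGCGG. The DR1 repeat, bound by PPARγ with its partner, was in 0.381% of promoters and in none of the member windows. A match is a description of letters, and no binding was measured in these data.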

How the data were processed

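Mapping was by GSNAP on GRCm38.p4 and counting by HTSeq, and the authors deposited raw counts for 661 cells. The deposited counts held 46078 entries, of which 270 repeated a symbol and were summed with it, and 37 mitochondrial genes were kept out of CPM. Cells were grouped by sorted population and age. Gene positions and exon lengths came from GENCODE M21. Thinning to 100000 counts left out 7 cells. Named genes are the 10 members, the list genes past 2-fold where 5 or fewer were in a direction, otherwise the 2 most changed in each direction, and the 3 genes most like each member. Not every gene this rule allows is given, since some results are withheld. The members and the lists were chosen with earlier results of these data known. Alternatives were another scaling, thinning, a pseudocount of 0.1 CPM, no filter, single library ranges, the clusters in place of gates, and leaving out cells. Steps were tested on simulated data with Python 3.11.15, numpy 2.4.6, pandas 2.3.3 and scipy 1.17.1, and figures drawn with matplotlib 3.10.9.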

Additional observations from a re-analysis of the deposited data

Results flagged for a closer look

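For 5 genes the age ratio passed 2-fold in opposite directions in different populations, with the direction kept in each library range and without the highest cell, a condition set after the values were seen. It was met by sign alone where too few counts were left for a comparison, as without the highest cell for *Adipoq* in AEC and *Fabp4* in MSC-S and mOPr, and in single ranges for these and for *Fabp4* in OPr. With 1 sample a group, none of these differences between populations was tested. Not meeting the condition were *Apoe* (MSC-S -1.21, mOPr 3.77), *Adipoq* in MSC-S (-4.51) and *Cebpb* in AEC (-1.54). *Lepr* was higher in old cells in MSC-S (log2 ratio 1.07), OPr (1.88) and mOPr (2.85) and lower in AEC (-1.22) and SEC (-1.26). Without cells of M1 and M2 *Lepr* was at -0.92 in OPr and -2.11 in mOPr, and without E1 at -0.69 in AEC and -0.35 in SEC. The calls in OPr, mOPr, AEC and SEC thus rest on such cells. In MSC-S *Lepr* was at 0.95 without the highest cell, a small move that took it under 2-fold. The part of M9, a cluster of old cells with more *Lepr*, was not tested. *Adipoq* was higher in OPr (1.53) and mOPr (3.22) and lower in AEC (-3.41) and SEC (-2.01). Of its counts, cells of M1 and M2 held 99.9% in old OPr and 99.97% in old mOPr, and 1 cell of E1 88.5% in young AEC. With clusters in place of gates it was at -5.31 in OPr, and without E1 at -1.51 in SEC. *Lpl* was higher in mOPr (4.00) and lower in AEC (-1.57). Cells of M1 and M2 held 76.4% of its counts in old mOPr, and it stayed past 2-fold without them. In AEC it stayed under 2-fold in range 3 alone. Among endothelial cells it stood highest outside the doublets in E5, whose share of AEC at each age was not compared. *Cebpb* was lower in MSC-L (-1.07) and higher in OPr (3.33) and mOPr (1.61). It stood at -0.99 without the highest cell and 1.13 with clusters in place of gates in MSC-L, and at 1.63 without blood-like cells in OPr. *Fabp4* was higher in MSC-L (1.32), OPr (3.51) and mOPr (3.49) and lower in MSC-S (-3.85). In young MSC-S 1 cell held 94.7% of its counts. With clusters in place of gates it was at -2.51 in OPr.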

How the results depend on the processing

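No paired analysis was possible because the labels name no mouse. Over 108 log2 ratios of the members, 977 alternatives were run, and 430 stayed within the counting interval, 532 moved outside it and 15 turned a direction past 2-fold. Of 544 alternatives of ratios past 2-fold, 529 kept the direction. Of 112 alternatives of the 12 counts of members past 2-fold, 96 lay within 1.5 times the count, 4 were larger and 12 smaller, in part because fewer members had enough counts. Of 120 shares of cells, 112 stayed within their interval after thinning, but 56 did where any count was enough and 64 moved. Scaling by size factors moved the median of all genes by 0.16 in OPr and 0.12 in mOPr (old over young), 0.34 (young) and 0.39 (old) in MSC-L over MSC-S, -0.11 in endosteal over marrow cells and 0.20 in old SEC over AEC. The cause of the changes below was not tested. The share of all genes past 2-fold was taken only in the main settings and in MSC-L of M1 alone and M2 alone. The other counts of members below have no such share beside them, so a change in a count is not a result about the members.

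In library range 1 alone, members past 2-fold with age were 4 in place of 2 in MSC-L and 2 in place of 4 in MSC-S, and 5 in place of 3 differed between old endosteal and marrow cells. *Apoe* in MSC-S was then at 2.17 and *Cebpd* in OPr at -0.42. In range 3 alone, 0 in place of 4 members passed in AEC, and *Cebpb* stood at 0.01 (0.0052).

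With clusters in place of gates, members past 2-fold with age were 2 in place of 4 in MSC-S, 4 in place of 7 in OPr and 1 in place of 2 in SEC. *Cebpb* in MSC-L was then at 1.13 and *Apoe* in MSC-S at 1.63, and in OPr *Lepr* stood at -0.79, *Adipoq* at -5.31, *Pparg* at -0.98 and *Fabp4* at -2.51. For old SEC over AEC, a setting chosen after seeing the data, 3 in place of 5 members passed and *Cebpa* was at -0.72.

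Without the highest cell of each group, members past 2-fold were 1 in place of 2 in MSC-L and 1 in place of 4 in MSC-S with age, and 6 in place of 3 for M2 over M1. Without cells of E1 they were 2 in place of 4 in AEC and 1 in place of 2 in SEC.

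Chosen after seeing the data were the splits by M1 and M2. Members past 2-fold with age in MSC-L were 1 in M1 and 6 in M2, in place of 2, where 25.0% and 53.1% of all genes passed. Without cells of M1 and M2 4 in place of 7 passed in OPr, with *Lepr* at -0.92 and *Cebpa* at -1.47, and *Lepr* in mOPr was at -2.11. *Cebpb* in M2 over M1 was at -0.30 in young cells and -0.20 in cells sorted as MSC-L. *Plin1* never had enough counts for a comparison.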

Other observations

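*Plin1* reached 10 CPM in 5 of the 661 cells, old MSC-L replicate 28 in cluster M2 (104 CPM), old OPr replicate 27 in M4 (63.9 CPM), old mOPr replicate 8 in M5 (46.9 CPM), young MSC-S replicate 28 in M16 (14.2 CPM) and young AEC replicate 68 in E6 (10.7 CPM). Old mOPr replicate 22, in cluster M2, had the highest *Cebpa* (635 CPM) and *Cebpd* (8537 CPM) of all cells. In cluster M6, 5 cells, *Lpl* stood at 970.2 CPM and *Apoe* at 1657 CPM with *Lepr* at 0.753 CPM and no count of *Adipoq*. In M8, 7 cells, *Lepr* was at 419.9 CPM and *Apoe* at 1567 CPM, again with no count of *Adipoq*. *Cfd* was at 182 CPM in young and 216 CPM in old SEC, and 34.3% and 29.6% of these cells reached 10 CPM.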
